A study of Mus musculus with 11 samples.

Results

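The genes described here are 10 members of the fibroblast growth factor (FGF) pathway in sorted mouse mammary epithelium. They are the ligands Fgf1 and Fgf2, the receptors Fgfr1, Fgfr2 and Fgfr3, and the feedback and target genes Spry1, Spry2, Spry4, Dusp6 and Etv5. They were chosen by name, with earlier results of these data known, and every probe whose RefSeq accession belongs to one of them was used. The array carries 15 such probes among 55681 in all. To be tested, a probe needed 3 or more of the 11 arrays well above the local background, and 14 of the 15 probes, for 9 of the 10 genes, met this. These 9 genes stand among 14068 named genes and 29429 features tested, a feature being a named gene or a probe without a gene name. Spry4 is given as levels only, and Fgf2 passed through 5 arrays that were all basal.

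RNA came from mammary outgrowths, which form after transduced epithelial cells are injected in matrigel. A lentivirus had given the cells either a hairpin against Ror2 (shROR2), a receptor of non-canonical Wnt signalling, or the control hairpin shLUC, and the comparisons asked what the Ror2 hairpin does in each epithelial layer. Cells were separated by the surface proteins CD24 and CD29 into basal and luminal populations, and each sample was hybridized to a one-colour Agilent array. The groups were basal shROR2 (3 arrays), basal shLUC (3), luminal shROR2 (2) and luminal shLUC (3), and a further luminal shROR2 sample is not analysed here. All groups share the viral transduction, the growth as an outgrowth, the sort and an amplification of the RNA before labelling. Mouse strain and age, and the share of sorted cells that carried a hairpin, are not given in the sources used here. The labels speak of biological triplicates without tying a sample to an outgrowth, so p-values measure the spread between these samples, which may be technical in part.

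FGF ligands bind receptor tyrosine kinases together with heparan sulfate chains, and the receptors signal through adaptor proteins, Ras and the MAP kinases ERK1 and ERK2. The pathway restrains itself: ERK activity induces Sprouty proteins, which block the path from receptor to Ras, and the phosphatase DUSP6, which inactivates ERK. ETS factors such as ETV5 are among its transcriptional targets, and in the mammary gland epithelial FGFR2 is known for its part in bud formation and branching.

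The share of probes well above background was 52.8% to 59.5% per array, and 0 spots were saturated. The arrays lay on 2 slides, each with 1 or 2 arrays of every group. Arrays of a group correlated at 0.941 to 0.953 in basal shROR2, 0.976 to 0.982 in basal shLUC, 0.983 in luminal shROR2 and 0.981 to 0.983 in luminal shLUC. Basal shROR2 was thus the group with the widest spread, with a median SD of 0.208 (log2) over bright features, against 0.108 in basal shLUC. Ror2 itself has 1 probe near background, with processed signals of 16.8, 3.03 and 6.93 in basal shROR2, 11.1, 12.1 and 10.1 in basal shLUC, 3.54 and 8.47 in luminal shROR2, and 3.14, 3.44 and 3.48 in luminal shLUC. It lay well above background only on the array labelled basal shROR2 replicate 1, so this probe does not check the labels, and the main results on basal shROR2 are also given without that array. The layers could be told from their markers: 7 of 8 basal markers were higher and 10 of 10 luminal markers lower in basal than in luminal cells under either hairpin.

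Summed marker signal of other cell types differed between the layers and between the hairpins, except that the fibroblast sums of the basal groups overlapped. No single marker of these types was called between the hairpins in luminal cells, and no fibroblast or pericyte marker in basal cells. Summed fibroblast marker signal, in units of the 75th percentile of the array, was 57.7 to 74.6 in basal shROR2, 61.9 to 67.8 in basal shLUC, 11.4 to 12.1 in luminal shROR2 and 6.80 to 7.12 in luminal shLUC, and 6 of 8 (shROR2) and 8 of 8 (shLUC) of these markers were higher in basal cells. Endothelial markers summed to 38.3 to 49.3 in basal shROR2, 21.4 to 26.5 in basal shLUC, 13.7 to 13.9 in luminal shROR2 and 10.8 to 11.5 in luminal shLUC. Of these markers 7 of 8 (shROR2) and 6 of 8 (shLUC) were higher in basal cells, and 0 were lower. Adipocyte markers summed to 51.3 to 64.6 in basal shROR2, 26.5 to 29.1 in basal shLUC, 14.2 to 16.7 in luminal shROR2 and 7.77 to 9.58 in luminal shLUC. Leukocyte markers ran the other way between the layers, with sums of 92.8 to 103.2 in basal shROR2, 60.7 to 64.0 in basal shLUC, 117 to 119.6 in luminal shROR2 and 90.7 to 92.01 in luminal shLUC, and 2 of 8 (shROR2) and 5 of 8 (shLUC) were lower in basal cells. Pericyte markers summed to 5.64 to 7.57 in basal shROR2, 3.97 to 4.69 in basal shLUC, 4.10 to 4.67 in luminal shROR2 and 3.13 to 3.39 in luminal shLUC. Of 5 pericyte markers tested, 3 were higher and 1 lower in basal cells under shROR2, and 2 were higher and 1 lower under shLUC. The fibroblast markers Pdgfra and Lum and the pericyte marker Pdgfrb were not well above background on any luminal array, nor was Pdgfra on any basal shROR2 array. The adipocyte marker Adipoq was not well above background on any luminal or basal shROR2 array, so the higher adipocyte sum in basal shROR2 came from the other markers. Of 5 adipocyte markers tested, 2 were higher and 1 lower in basal than in luminal shLUC cells, and 2 were higher and 0 lower under shROR2. The part of these cells in the differences between the layers and between the hairpins was not tested.

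Among the genes measured in both layers, basal and luminal cells differed most in Fgf1, Spry1 and Etv5. Of the 9 genes tested, 4 were called higher in basal than in luminal shROR2 cells (Etv5, Fgf1, Fgf2 and Spry1) and 5 in basal than in luminal shLUC cells (the same 4 and Fgfr3), at an adjusted p under 0.05, and none was called lower. Among all 29429 features, 22.8% were called in the shROR2 comparison (10.6% higher and 12.3% lower) and 27% in the shLUC comparison (13.7% higher and 13.3% lower). At an unadjusted p under 0.05 stood 6 of the 9 genes under shROR2, against 35% of all features, and 8 of 9 under shLUC, against 38%. Arrays of the layers did not overlap for 8 of the 9 genes under shROR2 (7 higher and 1 lower in basal cells), against 45.7% of all features (19.7% higher and 26% lower). Under shLUC they did not overlap for 9 of 9 (7 higher and 2 lower), against 52.2% (23.5% higher and 28.7% lower). The median change of the 9 genes was 0.67 on the log2 scale under either hairpin, beside -0.08 (shROR2) and -0.06 (shLUC) over all features. Fgf2 passed the filter only through basal arrays and so had to differ. Over the 8 genes left without it, 3 were called under shROR2 and 4 under shLUC, 5 and 7 had an unadjusted p under 0.05, the arrays did not overlap for 7 (6 higher and 1 lower) and 8 (6 higher and 2 lower), and the median change was 0.52 and 0.62. Without the array labelled basal shROR2 replicate 1, 4 genes were called under shROR2, again Etv5, Fgf1 (1.65, adjusted p 0.0148), Fgf2 (adjusted p 0.0185) and Spry1 (1.75, adjusted p 0.00137). Among the changes not called, leaving it out moved Spry2 to 0.45 (adjusted p 0.0760) and Fgfr3 to 0.22 (adjusted p 0.556). In sorted bulk samples, fewer cells of a type that makes a transcript and less of it per cell cannot be told apart.

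**Figure D1:**
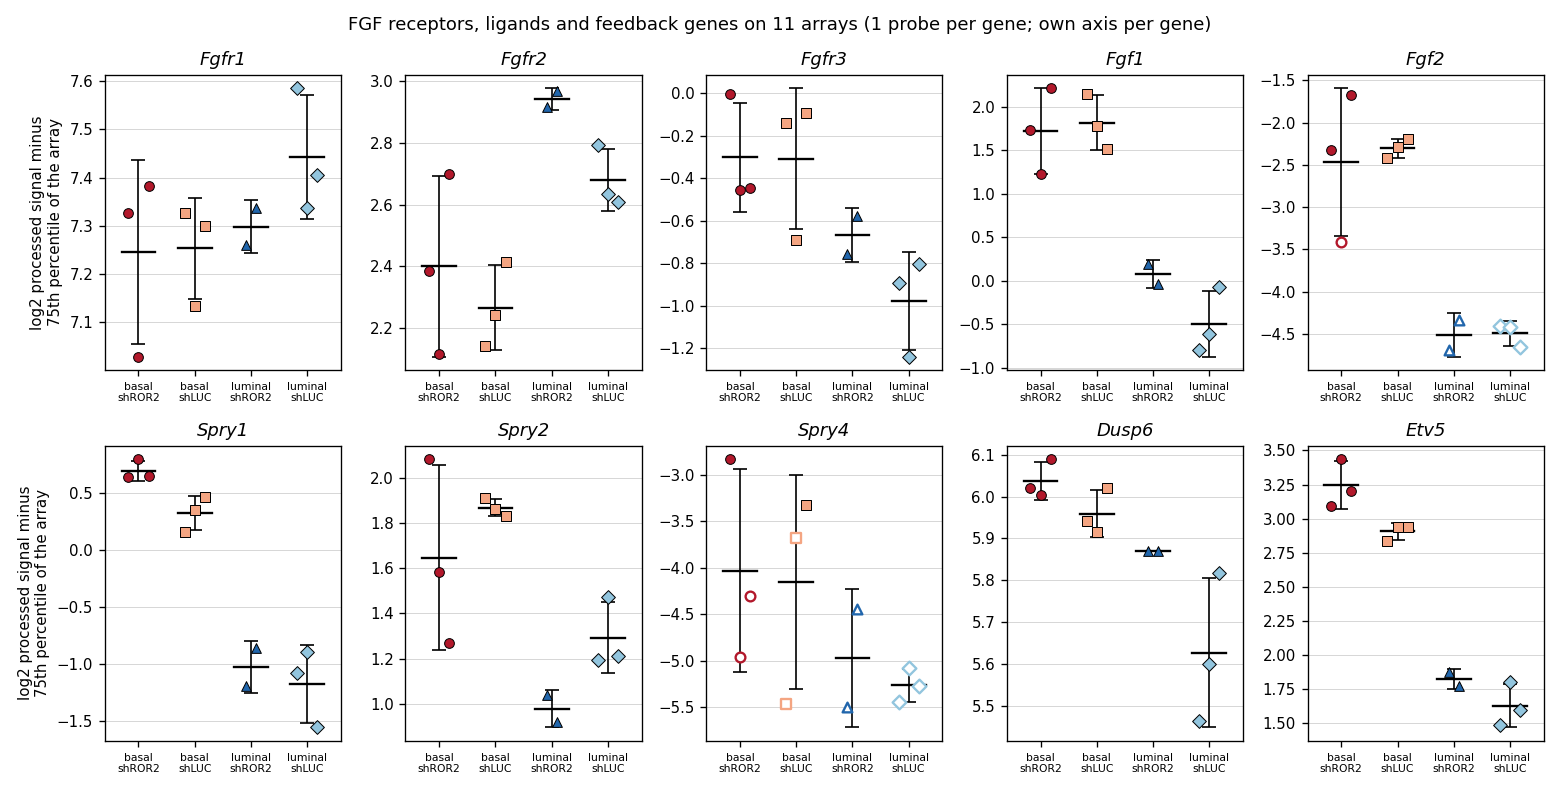
Scaled log2 signal (processed signal over the array's 75th percentile, as log2) of the 10 genes on each array, with the groups basal shROR2, basal shLUC, luminal shROR2 and luminal shLUC from left to right and an axis of its own for each gene; lines are group means, bars the SD, and open symbols arrays where the probe was not well above background. For Etv5, Spry1, Fgf1 and Fgf2 all 6 basal arrays lie above all 5 luminal arrays, and Spry4 is open on all but 2 arrays.

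Fgf1, a ligand that binds all FGF receptors, had processed signals of 382, 273 and 528 in basal shROR2, 519, 456 and 334 in basal shLUC, 139.7 and 113 in luminal shROR2, and 65.6, 76.5 and 113 in luminal shLUC. Every basal array was above every luminal one. On the log2 scale after scaling to the 75th percentile, which is used for all group means and changes here, Fgf1 averaged 1.72 ± 0.49 in basal shROR2 (SD, n = 3) and 0.07 ± 0.16 in luminal shROR2 (n = 2), a change of 1.65 ± 0.32 (SE) or 3.14-fold (limma, adjusted p 0.00594). Under shLUC it averaged 1.81 ± 0.32 in basal cells and -0.49 ± 0.38 in luminal cells (SD, n = 3 each), a change of 2.31 ± 0.29 or 4.95-fold (limma, adjusted p 0.000396). The direction was the same on each of the array slides, with changes under shROR2 of 1.78 on slide 1 and 1.27 on slide 2, and under shLUC of 2.63 on slide 1 and 2.12 on slide 2. Without luminal shROR2 replicate 2 the shROR2 call was lost (adjusted p 0.0526), and with the mean of both probes of the gene the changes were 1.16 under shROR2 and 1.44 under shLUC. A second, dim Fgf1 probe (A_52_P538673) had 15.8 to 28.1 in basal shROR2, 16.7 to 31.1 in basal shLUC, 12.1 to 14.9 in luminal shROR2 and 12.8 to 17.2 in luminal shLUC, and was not called in either comparison (limma, adjusted p 0.128 for shROR2 and 0.131 for shLUC).

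Fgf2, the basic FGF that is bound and stored by heparan sulfate in the matrix, was near background. Its probe, printed as 10 spots per array, gave 23.1, 10.98 and 35.9 in basal shROR2, 22.0, 27.2 and 25.6 in basal shLUC, 4.75 and 5.80 in luminal shROR2, and 5.40, 5.47 and 4.69 in luminal shLUC. No luminal array lay well above background, whereas all 3 basal shLUC arrays and 2 of the 3 basal shROR2 arrays did. Only a bound on the group mean can therefore be given: basal cells were at least 1.58-fold higher under shROR2 and at least 1.79-fold higher under shLUC. For it, the basal mean was set against the lowest signal that counts as well above background on the luminal arrays. The shROR2 mean includes replicate 2 (10.98), itself not well above background, so the shROR2 bound is not firm and does not hold for that array. The limma adjusted p (0.00674 under shROR2 and 0.00217 under shLUC) belongs to the fitted change, which uses luminal signals below background, and not to this bound. Because Fgf2 passed the filter only through basal arrays, no conclusion is drawn from it. Basal shROR2 replicate 2 was the low basal array, with 2 of its 10 spots well above background, against 10 of 10 on the other basal shROR2 arrays and 8 to 10 in basal shLUC. The shROR2 call was lost without luminal shROR2 replicate 1 (adjusted p 0.0627) and with only the compared groups in the fit (0.0962), and the shLUC call with normexp background correction (adjusted p 0.0504). On the scale of the authors' value table, whose lowest value is 52.5, its changes were 0.36 under shROR2 and 0.33 under shLUC. The annotation places Fgf2 over Fgf2os and Nudt6, Fgf1 over Arhgap26 and Gm5820, Fgfr1 over Gm16159 and Gm31288, and Dusp6 over Gm34921, and whether a probe also reads the neighbour was not tested.

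Of the receptors, Fgfr1 gave a different answer by probe. The brightest probe, A_55_P1967015, which stands for the gene in the fit over all features, had 18571, 15204 and 19078 in basal shROR2, 18869.8, 18649.5 and 18445 in basal shLUC, 18840.3 and 18868 in luminal shROR2, and 21917, 18951 and 20109 in luminal shLUC. Its change between the layers was -0.05 ± 0.15 under shROR2 (95% interval -0.38 to 0.28, limma adjusted p 0.842) and -0.19 ± 0.13 under shLUC (-0.49 to 0.11, adjusted p 0.330). The groups overlapped under shROR2, and under shLUC every luminal array was slightly above every basal one.

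Both other Fgfr1 probes were higher in basal cells. A_55_P1967022 had 5327, 4847 and 5144 in basal shROR2, 4920.0, 5528 and 5694 in basal shLUC, 3295 and 3018 in luminal shROR2, and 2460.1, 2433 and 2550.0 in luminal shLUC. No basal array came near a luminal one, and the change was 0.75 ± 0.12 under shROR2 (limma on every probe, adjusted p 0.0019) and 1.05 ± 0.11 under shLUC (adjusted p 0.0001). A_55_P2057777 had 644, 627 and 599 in basal shROR2, 781, 812 and 792 in basal shLUC, 512 and 464 in luminal shROR2, and 389, 438 and 402 in luminal shLUC. Here too the layers did not overlap, with changes of 0.41 ± 0.11 under shROR2 (adjusted p 0.0280) and 0.89 ± 0.10 under shLUC (adjusted p 0.0002). In that fit, 23.6% of 33611 probes were called under shROR2 and 27.4% under shLUC. The shROR2 call of A_55_P2057777 was lost without luminal shROR2 replicate 1 (adjusted p 0.103), without luminal shROR2 replicate 2 (0.154) and without basal shROR2 replicate 1 (0.0537). When the other groups were left out of the fit, the shROR2 calls of A_55_P1967022 (adjusted p 0.0621) and of A_55_P2057777 (0.210) were both lost.

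The Fgfr1 probes were also set against each other within arrays, where scaling cancels. The signal of A_55_P1967022 relative to A_55_P1967015 averaged -1.79 (log2) on the 6 basal arrays and -2.85 on the 5 luminal arrays, a difference of 1.06. That of A_55_P2057777 relative to A_55_P1967015 averaged -4.68 on basal and -5.49 on luminal arrays, a difference of 0.81. The layers did not overlap for either pair of probes. These values set shROR2 and shLUC arrays of a layer together, were looked at after the probes had been seen to differ and are a description with no test. Which transcripts each probe reads was not tested. With the mean of the 3 probes, Fgfr1 would be called higher in basal cells under shROR2 (0.37, adjusted p 0.0427) and under shLUC (0.58, adjusted p 0.00252).

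**Figure D2:**
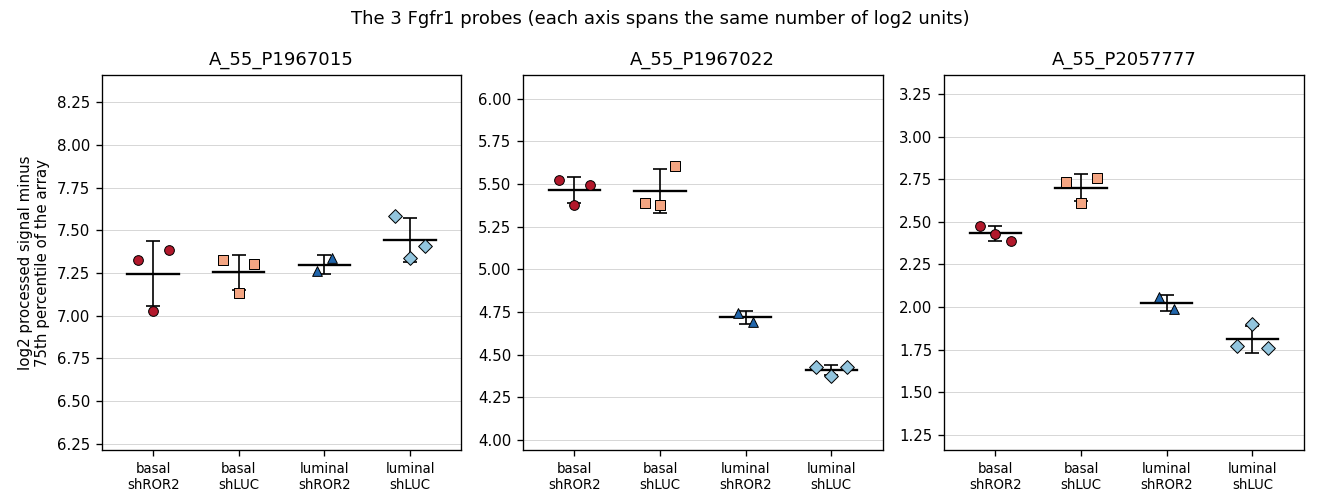
Scaled log2 signal of the 3 Fgfr1 probes on each array, groups from left to right as basal shROR2, basal shLUC, luminal shROR2 and luminal shLUC, all panels with the same span; lines are group means and bars the SD. A_55_P1967015 is nearly level over the 4 groups, while A_55_P1967022 and A_55_P2057777 are higher on all 6 basal arrays than on all 5 luminal arrays.

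Fgfr2, the receptor whose epithelial splice form binds ligands from the stroma, was the only gene of the 9 with lower values in basal than in luminal cells on every array under both hairpins, and the difference did not pass the test. Its brighter probe (A_55_P2094881) had 603, 504 and 743 in basal shROR2, 518, 628 and 624 in basal shLUC, 928 and 913 in luminal shROR2, and 792, 728 and 722 in luminal shLUC. The change was -0.54 ± 0.18 under shROR2 (95% interval -0.94 to -0.14, limma adjusted p 0.0563) and -0.41 ± 0.16 under shLUC (-0.77 to -0.06, adjusted p 0.0853). It was called lower under 5 of 22 alternative settings in each comparison. A second probe, A_51_P432403, which is printed 10 times per array, gave -0.59 (adjusted p 0.0633) under shROR2 and -0.35 (adjusted p 0.191) under shLUC.

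Fgfr3, a receptor known in the skeleton for restraining growth, had 115, 84.9 and 84.0 in basal shROR2, 107, 82.4 and 109.7 in basal shLUC, 72.8 and 78.2 in luminal shROR2, and 61.5, 49.6 and 68.0 in luminal shLUC on its brighter probe (A_65_P06147). The basal arrays were above the luminal ones under each hairpin by small margins. The change under shROR2 was 0.37 ± 0.23 (95% interval -0.16 to 0.89, limma adjusted p 0.305), and under shLUC it was 0.67 ± 0.21 or 1.59-fold (adjusted p 0.0418). The shLUC call was fragile: 11 of 22 alternatives kept it, and it was lost with the slide as a block (0.60, adjusted p 0.0668), with normexp (0.32, adjusted p 0.0544) and on leaving out any one of basal shLUC replicate 1 or 3 or of the 5 luminal arrays (up to adjusted p 0.137). The second probe, A_55_P1996578, gave 0.59 (adjusted p 0.131) under shROR2 and 0.88 (adjusted p 0.0193) under shLUC.

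Among the feedback and target genes, Etv5 and Spry1 rose together in basal cells. Etv5, an ETS-family transcription factor, had 985, 1261 and 1054 in basal shROR2, 839, 1020.0 and 899 in basal shLUC, 450.2 and 398 in luminal shROR2, and 320.3, 408 and 358 in luminal shLUC. The layers were far apart relative to the spread within a group: the change was 1.42 ± 0.14 or 2.68-fold under shROR2 (limma, adjusted p 0.000153) and 1.28 ± 0.13 or 2.43-fold under shLUC (adjusted p 0.000108). It was called in both comparisons under all 22 alternatives, with changes of 1.26 to 1.50 under shROR2 and 1.05 to 1.36 under shLUC. Without the array labelled basal shROR2 replicate 1, the shROR2 change was 1.50 (adjusted p 0.000305).

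Spry1, a Sprouty inhibitor of receptor tyrosine kinase signalling, had 180.5, 203 and 179 in basal shROR2, 132, 169 and 161 in basal shLUC, 54.0 and 64.2 in luminal shROR2, and 54.2, 63.2 and 40.3 in luminal shLUC. All basal arrays were above all luminal ones, by 1.72 ± 0.21 or 3.30-fold on average under shROR2 (limma, adjusted p 0.000397) and by 1.50 ± 0.18 or 2.83-fold under shLUC (adjusted p 0.000362). The call held under all 22 alternatives in both comparisons, while the size depended on the background: with normexp the changes were 1.08 under shROR2 and 0.93 under shLUC, and in the values of the authors they were 1.00 under shROR2 and 0.86 under shLUC.

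Spry2, the second Sprouty measured, had 491, 349 and 276 in basal shROR2, 442, 484 and 417 in basal shLUC, 252 and 221 in luminal shROR2, and 261, 325 and 275 in luminal shLUC. Its basal arrays were above its luminal arrays under each hairpin, but the change of 0.67 ± 0.22 under shROR2 (95% interval 0.18 to 1.16, limma adjusted p 0.0547) and of 0.58 ± 0.19 under shLUC (0.14 to 1.01, adjusted p 0.0556) did not pass the test. It was called under 6 of 22 alternatives for shROR2 and under 8 of 22 for shLUC.

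Dusp6, the ERK phosphatase, was bright on every array, with 7505, 7473 and 7785 in basal shROR2, 7225, 8015 and 7600.3 in basal shLUC, 7194 and 6825 in luminal shROR2, and 5036, 5684 and 6681 in luminal shLUC. The change between the layers was 0.17 ± 0.13 under shROR2 (95% interval -0.12 to 0.45, limma adjusted p 0.394) and 0.33 ± 0.11 under shLUC (0.08 to 0.59, adjusted p 0.0593). The upper end of the shROR2 interval was below the lower ends for Etv5 (1.09) and Spry1 (1.26) in the same comparison.

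Spry4, a further Sprouty, was near background on its 1 probe: 16.2, 3.75 and 5.79 in basal shROR2, 2.66, 10.4 and 11.7 in basal shLUC, 2.72 and 5.37 in luminal shROR2, and 2.63, 3.47 and 3.07 in luminal shLUC. It lay well above background on 2 arrays, basal shROR2 replicate 1 and basal shLUC replicate 3, so no change is given.

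**Figure D3:**
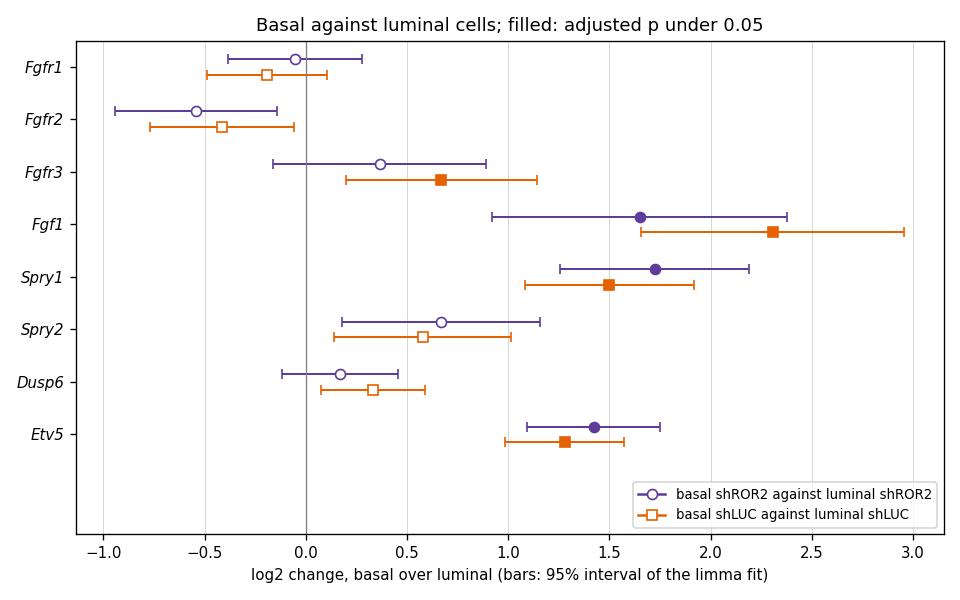
Log2 change of basal against luminal cells for 8 of the genes, shROR2 above shLUC in each pair, with 95% intervals from limma and filled points for an adjusted p under 0.05; Fgf2 and Spry4 are left out because Fgf2 was not above background in luminal cells and Spry4 was not tested. Fgf1, Spry1 and Etv5 lie furthest right under both hairpins, and Fgfr2 and the brightest Fgfr1 probe lie at or left of 0.

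The sequence before the start of transcription is shown for the pair of targets that rose together and for Fgfr2, which lay on the other side of 0, with the core GGAA (or TTCC, the same core read from the other strand) that ETS factors recognise in capitals. Each is 250 bases 5′ of the start from RefSeq, assembly GRCm38.p6, on the strand of the gene. Spry1 lies at chr3:37639697-37639946 (plus strand), the window shown for Etv5 at chr16:22438369-22438618 (minus strand) and Fgfr2 at chr7:130266809-130267058 (minus strand).
Spry1: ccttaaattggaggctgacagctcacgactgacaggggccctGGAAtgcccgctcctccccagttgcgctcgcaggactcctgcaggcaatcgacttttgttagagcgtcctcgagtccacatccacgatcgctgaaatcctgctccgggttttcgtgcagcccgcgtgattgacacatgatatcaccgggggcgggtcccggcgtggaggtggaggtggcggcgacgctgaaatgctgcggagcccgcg
Etv5: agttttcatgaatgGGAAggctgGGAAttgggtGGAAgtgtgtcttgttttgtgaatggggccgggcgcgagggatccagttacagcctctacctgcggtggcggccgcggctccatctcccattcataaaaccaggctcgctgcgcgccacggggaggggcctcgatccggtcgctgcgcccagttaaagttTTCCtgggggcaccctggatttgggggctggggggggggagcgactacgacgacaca
Fgfr2: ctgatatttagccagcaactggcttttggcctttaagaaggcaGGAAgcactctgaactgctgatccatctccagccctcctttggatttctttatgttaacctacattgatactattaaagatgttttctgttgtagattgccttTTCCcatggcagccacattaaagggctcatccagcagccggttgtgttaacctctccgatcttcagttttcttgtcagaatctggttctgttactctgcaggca
The Spry1 window holds 1 core, the Etv5 window shown 4 and the Fgfr2 window 2, and GC content is 62.4%, 62.0% and 44.0% in that order. RefSeq gives Etv5 a second start, whose window at chr16:22439571-22439820 (minus strand) is not shown and holds 0 cores at a GC content of 71.2%, so the count for Etv5 depends on the start taken. The core is common: 93.4% of 32851 mouse promoter windows of this length hold at least 1, with a median of 3. The longer motif CCGGAAG, or CTTCCGG on the other strand, which contains the core, occurs in 6.91% of all windows. Among the members it occurs in 0 of the 9 windows looked at, which belong to 7 genes. Fgfr1 has no entry, and windows of Fgf1 and Spry4 were left out of this member count. A match is a description of the letters in the window, and a motif that is missing from it says nothing about binding elsewhere.

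The Ror2 hairpin changed none of the 9 genes past the threshold in either layer. In basal cells 0 of 9 were called (limma, lowest adjusted p 0.253), against 0.965% of all features, and 1 of 9 had an unadjusted p under 0.05, against 15.8%. In luminal cells 0 of 9 were called (lowest adjusted p 0.978), against 0.0034% of all features, which is 1 feature, and 0 of 9 had an unadjusted p under 0.05, against 5.55%. The count stayed at 0 in both layers under all 22 alternatives. The difference of the hairpin's effect between the layers was also called for 0 of 9 (lowest adjusted p 0.743), against 0% of all features, with 0 of 9 at an unadjusted p under 0.05, against 8.29%. These counts take 1 probe per gene, for Fgfr1 the brightest, and its other probes are given below.

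Etv5 and Spry1 had the largest positive values in the basal comparison. After scaling, the 3 basal shROR2 arrays were above the 3 basal shLUC arrays for both genes and for no other of the 9, against 18.5% of all features without overlap (6.73% higher and 11.7% lower). Etv5 averaged 3.24 ± 0.18 in basal shROR2 and 2.91 ± 0.06 in basal shLUC (SD, n = 3 each), a difference of 0.34 ± 0.13 (95% interval 0.04 to 0.63, limma adjusted p 0.253). Spry1 averaged 0.70 ± 0.09 in basal shROR2 and 0.33 ± 0.15 in basal shLUC, a difference of 0.37 ± 0.18 (-0.04 to 0.79, adjusted p 0.369). Neither passed the test, and without the array labelled basal shROR2 replicate 1 the differences were 0.41 for Etv5 (adjusted p 0.143) and 0.40 for Spry1 (adjusted p 0.341). On slide 1 they were 0.26 for Etv5 and 0.33 for Spry1, and on slide 2 they were 0.50 and 0.45. The other genes lay between -0.22 (Spry2) and 0.13 (Fgfr2), and without the array labelled basal shROR2 replicate 1 Spry2 stood at -0.44 (adjusted p 0.140).

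In luminal cells the largest value was that of Fgf1, at 0.57 (95% interval -0.16 to 1.29), with 2 shROR2 arrays against 3 shLUC arrays. The interval is wide and includes 0. Dusp6 differed by 0.24, Etv5 by 0.19, Fgfr2 by 0.26, Fgfr3 by 0.31 and Spry1 by 0.15, while Spry2 differed by -0.32 and the brightest Fgfr1 probe by -0.14. For 6 of the 9 genes the luminal arrays did not overlap (4 higher and 2 lower in shROR2), against 29% of all features (14.4% higher and 14.6% lower). Fgf2 was below background in both luminal groups and has no value. Fgfr1 was not called by any of its 3 probes in either layer in the fit of every probe, against 0.89% of 33611 probes in basal cells and 0.00298%, which is 1 probe, in luminal cells. There A_55_P1967022 differed by 0.01 in basal and 0.31 in luminal cells, and A_55_P2057777 by -0.27 in basal and 0.21 in luminal cells. Their smaller unadjusted p-values (limma on every probe) were 0.0291 for A_55_P1967022 in luminal cells and 0.0252 for A_55_P2057777 in basal cells.

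**Figure D4:**
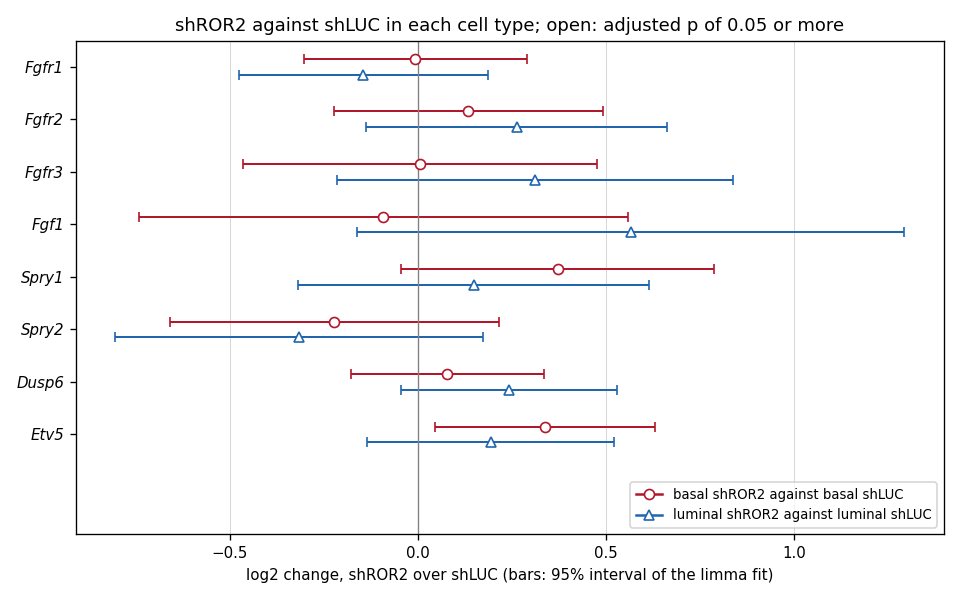
Log2 change of shROR2 against shLUC for 8 of the genes, basal above luminal in each pair, with 95% intervals from limma; no point is filled because no adjusted p is under 0.05. Etv5 and Spry1 lie to the right of 0 in basal cells, and the luminal interval of Fgf1 is the widest, from -0.16 to 1.29.

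Group means were ordered basal shROR2, basal shLUC, luminal shROR2, luminal shLUC from high to low for Etv5, Spry1, Dusp6 and Fgfr3. Fgf1 and Fgf2 had basal shLUC above basal shROR2 and both above the luminal groups, and Spry2 ran basal shLUC, basal shROR2, luminal shLUC, luminal shROR2. Fgfr2 ran luminal shROR2, luminal shLUC, basal shROR2, basal shLUC. The brightest Fgfr1 probe ran luminal shLUC, luminal shROR2 and then both basal groups, each at 7.25. Neighbours in these orders that share a layer did not differ past the test in any gene, since no hairpin comparison was called, and neighbours that differ in both layer and hairpin were not compared.

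Genes further along the same pathway were read from 4 lists of other receptors and co-receptors, ligands and carriers, adaptors and kinases, and feedback and target genes, 71 genes in all, of which 54 were tested. The lists too were chosen with earlier results of these data known, which limits how their shares of calls can be read. Between the layers, 13 were called higher and 2 lower in basal shROR2 than in luminal shROR2 cells (27.8% of the 54, against 22.8% of all features), and 17 higher and 2 lower in basal shLUC than in luminal shLUC cells (35.2%, against 27%). The median change of the 54 was 0.25 under shROR2 and 0.32 under shLUC, beside -0.08 and -0.06 over all features. The receptors and co-receptors held the largest share of calls among the lists, with 7 of 11 tested higher in basal cells under shROR2, 8 of 11 under shLUC, and none lower. Genes measured in only 1 of the layers passed the filter through that layer. Without them, 6 of 9 receptors and co-receptors were called under shROR2 and 7 of 10 under shLUC, and over the 4 lists 14 of 51 and 18 of 51.

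Heparan sulfate proteoglycans, which hold FGF ligands at the receptor, made up the co-receptor calls with the smallest p. Gpc3, a glypican, had 114 to 141 in basal shROR2, 173 to 202 in basal shLUC, 3.11 to 3.21 in luminal shROR2 and 2.91 to 4.85 in luminal shLUC. It was not well above background on any luminal array, so it passed the filter through basal arrays and had to differ, and only a bound can be given. By that bound basal cells were at least 9.69-fold higher under shROR2 and at least 13.4-fold higher under shLUC. The limma adjusted p (5.44e-07 under shROR2 and 1.44e-07 under shLUC) belongs to the fitted change on luminal signals below background, not to the bound. Gpc1, another glypican, was higher by 1.16 ± 0.11 under shROR2 (adjusted p 0.000118) and by 1.93 ± 0.10 under shLUC (adjusted p 1.7e-06). The syndecan Sdc1 was higher by 1.35 ± 0.15 under shROR2 (adjusted p 0.000248) and by 1.81 ± 0.13 under shLUC (adjusted p 1.44e-05). Summed fibroblast, endothelial, adipocyte and pericyte markers were also higher in basal cells under each hairpin, and leukocyte markers lower. The part of these cells in the differences was not tested.

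Other ligands were mostly dim, with 9 of 22 tested. Fgf21, an endocrine FGF, was higher in basal cells by 1.39 ± 0.32 under shROR2 (limma, adjusted p 0.0141) and by 1.50 ± 0.29 under shLUC (adjusted p 0.00477), where 2 of 3 luminal arrays lay well above background. Fgf11, an intracellular FGF homologue, was higher by 0.96 ± 0.22 under shROR2 (adjusted p 0.0135) and by 0.90 ± 0.20 under shLUC (adjusted p 0.00942). The size of both depended on the processing. Over the alternatives the change fell as low as 0.53 for Fgf21 under either hairpin, and for Fgf11 to 0.55 under shROR2 and 0.48 under shLUC. Fgf8 was lower in basal shLUC cells by the fit (-0.51 ± 0.15, adjusted p 0.0384), but the mean of its probes gave -0.16 (adjusted p 0.748). The shROR2 calls of Fgf11 and Fgf21 were lost on leaving out either luminal shROR2 array and with only the compared groups in the fit (adjusted p 0.103 for Fgf11 and 0.0593 for Fgf21).

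Adaptors and kinases showed few calls, 2 of 18 under shLUC (11.1%, against 27% of all features), both higher in basal cells. Ptpn11, the phosphatase SHP2 that couples receptors to Ras, was higher in basal shLUC cells by 0.68 ± 0.12 (limma, adjusted p 0.00248). Map2k1, which encodes the ERK kinase MEK1, was higher in basal shLUC cells by 0.78 ± 0.22 (adjusted p 0.0307) and kept its call under 15 of 22 alternatives.

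The other feedback and target genes had 4 higher and 1 lower of 16 under shROR2 (31.2% called, against 22.8% of all features). Under shLUC they had 5 higher and 1 lower (37.5%, against 27%). Dusp7, an ERK phosphatase like DUSP6, had 1878 to 2179 in basal shROR2, 2079 to 2507 in basal shLUC, 420.3 to 468 in luminal shROR2 and 364 to 459.7 in luminal shLUC. Its layers were far apart, by 2.26 ± 0.14 under shROR2 (limma, adjusted p 6.43e-06) and 2.38 ± 0.12 under shLUC (adjusted p 1.46e-06). The Spred inhibitors of Ras signalling were higher as well, Spred1 by 1.94 ± 0.28 under shROR2 (adjusted p 0.00121) and Spred2 by 1.83 ± 0.21 under shLUC (adjusted p 0.000211). Fos, an immediate early gene, went the other way, with changes of -1.34 ± 0.11 under shROR2 (adjusted p 5.29e-05) and -1.69 ± 0.10 under shLUC (adjusted p 4.05e-06).

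**Figure D5:**
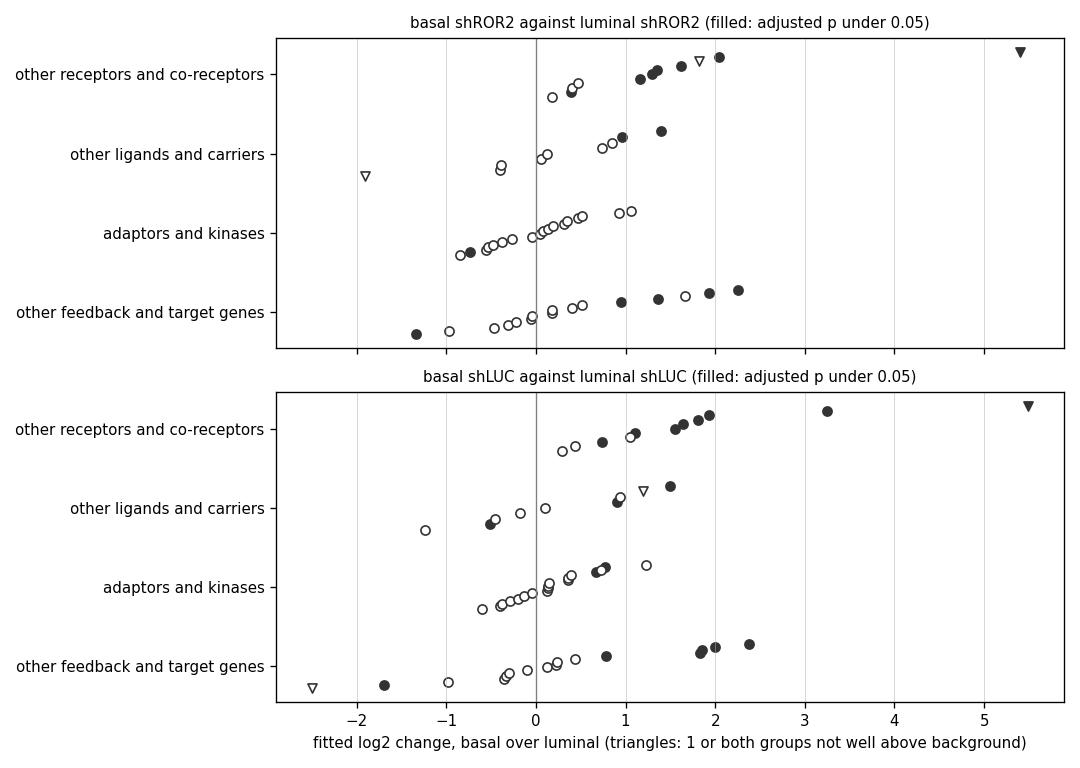
Log2 change of basal against luminal cells for the 54 tested genes of the 4 other pathway lists, shROR2 in the upper panel and shLUC in the lower; filled symbols have an adjusted p under 0.05, and triangles mark genes not well above background in 1 or both groups. The share of calls is highest among receptors and co-receptors, 7 of 11 under shROR2 and 8 of 11 under shLUC, while adaptors and kinases hold 2 calls of 18 under shLUC. Of all features, 22.8% were called under shROR2 and 27% under shLUC.

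In the hairpin comparison 2 of the 54 genes were called, against 0.965% of all features, both immediate early genes and both in basal cells. Egr1 had 15790 to 19839 in basal shROR2 and 9513 to 11285 in basal shLUC, a difference of 0.85 ± 0.12 (limma, adjusted p 0.0239). Fos had 2979 to 3279 in basal shROR2 and 2045 to 2363 in basal shLUC, a difference of 0.61 ± 0.10 (adjusted p 0.0383). Both calls were lost when the luminal groups were left out of the fit (adjusted p 0.236 for Egr1 and 0.272 for Fos) and with array weights per group (0.0840 and 0.142), and both held without the array labelled basal shROR2 replicate 1 (0.0142 and 0.0418). Egr1 was called under 13 of 22 alternatives, among them 5 of the 11 that leave out 1 array, and Fos under 8 of 22, among them 2 of those 11. In the same comparison 4 of 8 leukocyte, 2 of 8 endothelial and 2 of 5 adipocyte markers were higher in basal shROR2, and the part of those cells was not tested. Receptors and co-receptors had 0 of 11 called in basal cells and a median of -0.36, with 6 of 11 at an unadjusted p under 0.05, against 15.8% of all features. The smallest p among them belonged to Gpc1, at -0.51 (limma, adjusted p 0.0595), and Sdc1 stood at -0.65 (adjusted p 0.0661). None of the 54 was called in luminal cells, where 4 of 11 receptors and co-receptors, 3 of 16 feedback and target genes and 0 of the others had an unadjusted p under 0.05, against 5.55% of all features.

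Patterns over the 11 arrays were most alike, by Pearson's r of scaled log2 signal among 14067 other named genes, in Calu (0.991) and Smarca1 (0.989) for Fgf2, in Man2a1 (0.983) and Akr1b3 (0.980) for Fgf1, in Dusp1 (0.991) and Nfatc1 (0.989) for Etv5, and in Nfatc1 (0.985) and Rgl1 (0.982) for Spry1. Nfatc1 was thus among the nearest of both Etv5 and Spry1. The nearest were Stag1 (0.972) and Kbtbd7 (0.963) for Spry2, Mapk8 (0.947) and Gpi1 (0.935) for Dusp6, Rhbdd3 (0.963) and Natd1 (0.958) for Fgfr2, Gcn1 (0.954) and Mnd1 (0.929) for Fgfr3, and E130304I02Rik (0.909) and Hmga2 (0.903) for the brightest Fgfr1 probe. Fgf2 was well above background on only 5 arrays, all basal. Its r therefore rests in part on background values and on the layer split through which it passed the filter. The 11 arrays share their layers and hairpins for every gene, and the r values are a description with no test.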

How the data were processed

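RNA from sorted mouse mammary basal and luminal cells was measured on 11 one-colour Agilent arrays in 4 groups, taken from the sample labels. The deposited scanner files hold spot intensity from Agilent Feature Extraction 11.0.1.1. Per the file headers, that program subtracted background and spatial trends on every array separately and did not normalize arrays to each other. The authors' value table holds intensity on a linear scale, with a lowest value of 52.5, and the sources used here do not say how it was normalized. No deposited value is on a log scale, and the log2 values were computed here.

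Replicate spots were averaged, and RefSeq accessions were matched to symbols in a gene table of assembly GRCm38.p6 (26582 of 55681 probes, 29099 without a name). Tests used the log2 of processed signal over the array's own 75th percentile. After a filter (well above background on at least 3 of 11 arrays) 33628 probes were left, and the probe with the highest mean stood for each named gene, which gave 29429 features. Of the named genes, 3490 had several probes past the filter. A fit of 4 group means in limma 3.58.1 (R 4.3.3, prior degrees of freedom 1.85; files were read with the data.table package, version 1.17.8) gave two-sided p-values, adjusted by Benjamini and Hochberg's method over all features of a comparison and called under 0.05. A further fit took each of 33611 probes on its own. The number of arrays limits the precision, and shROR2 luminal values rest on 2 arrays. Fgfr1 probe differences and figures used Python 3.11.15 with numpy 2.4.6, pandas 2.3.3, scipy 1.17.1 and matplotlib 3.10.9. The limma step was tested on simulated data.

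Named in the text were all 10 members, up to 3 called genes of each pathway list per comparison with the smallest p, and the 2 genes most like each tested member. One gene picked by this rule is not reported here. The members and the lists of pathway genes and markers were chosen with earlier results of these data known. Alternatives were normexp with an offset of 50 (on median signals, since mean signals are not in the files used), quantile and median scaling, the authors' table, other filters, the mean of a gene's probes, only the groups compared, array weights, slide and replicate blocks, and leaving out each array. Replicate numbers are shared by the groups, and same-numbered arrays did not deviate together (r of -0.04 to 0.04 over 15 pairs, none over 0.1). They were not taken as pairs in the main fit. With 2 or 3 arrays per group, these r values cannot show that the samples are unpaired, and the labels do not say.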

Additional observations from a re-analysis of the deposited data

Results flagged for a closer look

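The Fgfr1 probe A_55_P2057777 moved in opposite directions with the Ror2 hairpin in the layers. All 3 basal shROR2 arrays (599 to 644) lay below all 3 basal shLUC arrays (781 to 812), a change of -0.27 (limma on every probe, adjusted p 0.241), while both luminal shROR2 arrays (464 and 512) lay above all 3 luminal shLUC arrays (389 to 438), a change of 0.21 (adjusted p 0.990). The difference of the basal and luminal effects was -0.48 (limma on every probe, unadjusted p 0.0107, adjusted p 0.467 over all probes), so it did not pass the test. The other Fgfr1 probes did not show this pattern.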

How the results depend on the processing

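Of the counts of called members, all stayed within 1.5 times the reported count under the 22 alternatives except that for basal against luminal shLUC cells, which was 5 as reported, 8 with array weights per group and 4 to 7 on leaving out single arrays. Under shROR2 the count was 3 to 6. The hairpin comparisons gave 0 members under every alternative. Values that changed sign were all of changes that had not been called. With normexp, Fgf2 had 0.0138 in the basal hairpin comparison and 0.0686 in the difference between layers, which was 0.0253 in the authors' table. Fgfr1 in the basal hairpin comparison had 0.0608 with median scaling and 0.00587 in the authors' table. With the mean of the probes, Fgfr1 had 0.13 in the luminal hairpin comparison, -0.21 in the difference between layers, 0.37 for basal against luminal shROR2 and 0.58 for basal against luminal shLUC, because the other probes enter it. In the luminal hairpin comparison Fgf2 was below background in both groups, so its fitted values are no measured change; with the replicate block the fit gave 0.11. The labels do not say whether same-numbered samples belong together. The block left the member counts within 1.5 times, while the basal hairpin calls over all features fell to 37, against 284. Leaving out single arrays gave, for luminal hairpin changes, -0.20 to 0.16 for Fgf2 and -0.0428 to 0.31 for Spry1. For basal hairpin changes it gave -0.34 to 0.15 for Fgf1, -0.56 to 0.30 for Fgf2, -0.0751 to 0.10 for Fgfr1, -0.0158 to 0.28 for Fgfr2 and -0.19 to 0.11 for Fgfr3. For the difference between layers it gave -0.55 to 0.32 for Fgf2, -0.28 to 0.0143 for Fgfr2 and -0.13 to 0.28 for Spry2. For basal against luminal shROR2 it gave -0.12 to 0.0568 for Fgfr1. The cause of these changes was not tested. Of the single-gene values, 1402 kept their direction and side of the threshold, 72 lost and 29 gained a call and 29 changed sign.

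The basal hairpin count over all features, 284 (113 higher and 171 lower), became 0 with only the groups compared, 34 with array weights, 133 with the slide as a block, 691 with normexp, 541 in the authors' table, and 27 to 878 on leaving out single arrays, the highest without the array labelled basal shROR2 replicate 1. Median scaling turned its split to 109 higher and 97 lower. Basal against luminal shROR2 calls numbered 6722, against 2828 with only the groups compared, and basal against luminal shLUC calls 7939, against 11383 with array weights. The luminal hairpin count of 1 became 58 with array weights, 22 with normexp, 21 in the authors' table and 0 to 10 on leaving out single arrays. Low signal limits Fgf2 and Spry4, whose values lie near the lowest signal well above background (10.8 to 14.2).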
